A study of Mus musculus with 4 samples.

Results

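The immunoglobulin heavy chain constant genes were followed in splenic B cells of mice lacking Il2rb in B cells and of Cre controls. They are Ighm, Ighd, Ighg3, Ighg1, Ighg2b, Ighg2c, Ighe and Igha, 8 of the 32285 genes in the B cell expression table, found by their symbols. Il2rb encodes the shared beta chain of the IL-2 and IL-15 receptors. The 4 pools were KO day 4, control day 4, KO day 0 and control day 0, where day 4 is 4 days after intraperitoneal sheep red blood cells and day 0 is unimmunized. All animals carried CD19Cre/+ on C57BL/6NRj, so that Cre is expressed in B cells in the control too, and the genotype field reads Il2rb fl/fl for KO and control alike. Genotype was therefore taken from the hashtag antibodies, whose text calls the control "Cre". The labels give no age and no number of mice per pool. B cells were isolated magnetically, and all 4 pools were run in 1 library with the 10x Genomics 5′ chemistry, which counts unique molecular identifiers (UMIs).

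After hashtag calling, 1939 KO day 4, 1393 control day 4, 1019 KO day 0 and 1126 control day 0 cells had 1 hashtag, 5477 of 6339 barcodes. Their median depth was 5923, 6198, 4928 and 4673 UMIs. Cells of other lineages made up 2.13% to 5.24% of a pool, and 84 barcodes were shared by the B cell library and a CD4 T cell library of the same series. Il2rb itself had 4 UMIs in KO day 4 and 9 UMIs in control day 4 B lineage cells, and 0 in both day 0 pools, so it does not check the genotype labels at this depth. Each group is 1 pool, so no difference between groups was tested. All intervals given are 95% intervals that cover counting error only.

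A B cell makes its antibody heavy chain from a rearranged variable segment joined to a constant gene. Naive cells splice the same primary transcript to Ighm (IgM) or Ighd (IgD). Class switch recombination deletes the DNA in between and moves the variable segment next to a downstream constant gene, for the IgG subclasses Ighg3, Ighg1, Ighg2b and Ighg2c, for IgE (Ighe) or for IgA (Igha). Plasma cells raise heavy chain RNA far above the level of other B cells and also express Jchain, the joining chain of multimeric IgM and IgA. Constant genes are also transcribed from their own upstream exon without a variable segment, and the deposited table does not separate those transcripts.

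The members lie in order on the minus strand of mouse chromosome 12 (mm10), from Ighm at 113418558 to 113422730 through Ighd, Ighg3, Ighg1, Ighg2b, Ighg2c and Ighe to Igha at 113254830 to 113260236. The 4 IgG genes resemble each other, which bears on how well reads can be split among them. The first 60 bases of their annotated constant transcripts (GENCODE vM21, mm10) are shown for that reason, with capitals at the 22 positions that are not the same in all 4 genes:
Ighg3, chr12:113361173-113361232, minus strand: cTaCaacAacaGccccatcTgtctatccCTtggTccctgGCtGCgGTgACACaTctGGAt
Ighg1, chr12:113330464-113330523, minus strand: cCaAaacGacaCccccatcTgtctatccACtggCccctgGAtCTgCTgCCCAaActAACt
Ighg2b, chr12:113307874-113307933, minus strand: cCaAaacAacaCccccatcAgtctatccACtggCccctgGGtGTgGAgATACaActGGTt
Ighg2c, chr12:113288873-113288932, minus strand: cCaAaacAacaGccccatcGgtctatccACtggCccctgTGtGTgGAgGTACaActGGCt

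Ighg2b and Ighg2c were the closest pair. They shared 83 of their first 90 bases and a run of 78 bases, and 56 of the 1065 words of 50 bases in Ighg2b also stood in Ighg2c. The other IgG pairs shared no word of 50 bases, and their longest shared run was 28 to 41 bases. Values of Ighg2b and Ighg2c are therefore the least certain to be separate.

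Ighm and Ighd were spread over nearly all B cells. Ighm was at 1247 CPM (UMIs of the gene per 1000000 UMIs of the pool) in KO day 4 (18104 UMIs), 1517 in control day 4 (17578 UMIs), 1807 in KO day 0 (10900 UMIs) and 1673 in control day 0 (10691 UMIs). Cells with at least 20 Jchain UMIs, only 56 in all, held 30.6% of these Ighm UMIs. Without them, Ighm in B lineage cells was at 1129 CPM (1111 to 1147) in KO day 4, 1041 (1021 to 1062) in control day 4, 1295 (1265 to 1325) in KO day 0 and 1335 (1305 to 1365) in control day 0. Both day 4 pools were thus below both day 0 pools, and at day 4 the KO pool was the higher of the 2 genotypes by this measure and the lower by the sum over all cells. Ighd was at 580 CPM in KO day 4, 529 in control day 4, 619 in KO day 0 and 666 in control day 0 over all cells. No cell held more than 38 Ighd UMIs, and the cells with at least 20 Jchain UMIs held 0.142% of them.

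Summed over the 4 pools, a few cells held most of the UMIs of each switched gene but Ighe. Ighg1 had 956 UMIs in KO day 4, of which 829 came from 1 cell, and 784 in control day 4, with 431 from 1 cell. At day 0 it had 12 UMIs in the KO pool and 9 in the control pool. Ighg2b had 3165 UMIs in KO day 4, 2678 in control day 4, 68 in KO day 0 and 1680 in control day 0, and the cell with most UMIs gave 2143, 1412, 19 and 1609 of them. The sum of control day 0 was near that of the day 4 pools in CPM through that 1 cell. Without the top cell of each pool, Ighg2b was at 8.14 CPM in KO day 0 and 11.2 CPM in control day 0. Ighg2c had 129 UMIs in KO day 4, 2168 in control day 4, 101 in KO day 0 and 634 in control day 0, with top cells of 23, 1103, 91 and 622 UMIs. Ighg3 had 178, 1469, 79 and 28 UMIs in the same order of pools, and 828 of the 1469 in control day 4 came from 1 cell. Igha had 169 UMIs in KO day 4, 4300 in control day 4, 66 in KO day 0 and 53 in control day 0. A pair of cells gave 2149 and 1946 of the 4300, and the KO pools held no cell above 19. Outside control day 4, Igha was spread more widely, over 88 cells in KO day 4, 44 in KO day 0 and 39 in control day 0. The top 5 cells held 37.9%, 37.9% and 35.8% of its UMIs in these pools. Ighe had 6 UMIs in KO day 4 and 7 in control day 4, with at most 2 in a cell, and 0 in both day 0 pools, where a count of 0 allows 0.497 CPM in KO day 0 and 0.469 CPM in control day 0.

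**Figure D1:**
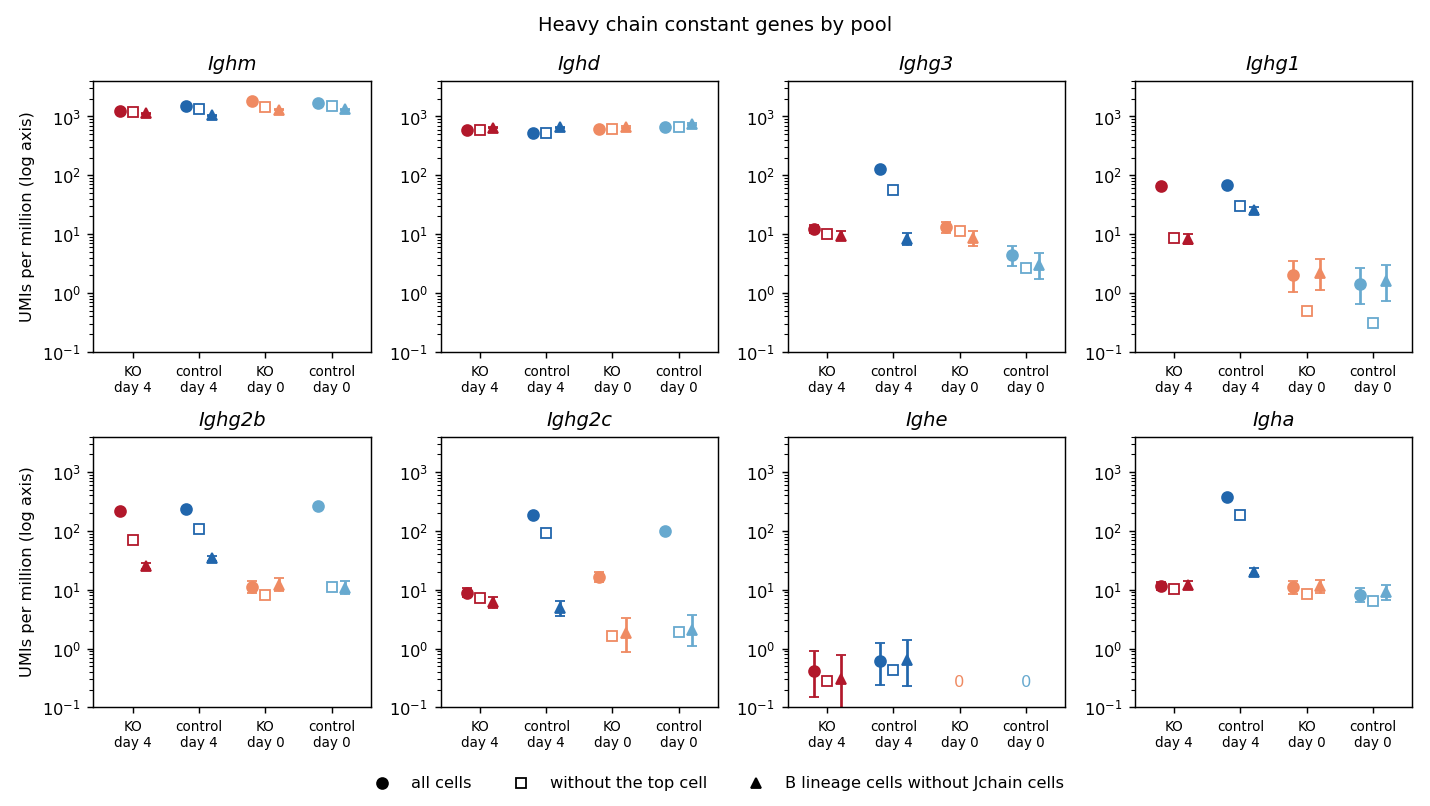
Level of each constant gene in CPM (log axis) in KO day 4, control day 4, KO day 0 and control day 0, over all cells (circles, with 95% Poisson intervals), without the cell with most UMIs of that gene (open squares) and in B lineage cells without Jchain cells (triangles, with intervals). Ighd lies between 527 and 744 CPM by every measure, while Igha in control day 4 falls to 186 CPM without its top cell and 20.3 CPM without Jchain cells, against 371 CPM over all cells.

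The cells with at least 20 Jchain UMIs held 84.8% of all Ighg3 UMIs, 78.9% of Ighg1, 89.7% of Ighg2b, 95.1% of Ighg2c and 89.9% of Igha. By pool this ranged widely. They held 5.33% of Igha in KO day 4 and 95.6% in control day 4, and 0 of the 68 Ighg2b UMIs in KO day 0 against 96.3% in control day 0.

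For each member the ratio of CPM between pools was computed, as for every gene of the table, and called past the fold at 1.5 in either direction where both pools together held at least 20 UMIs. Ighe did not reach that minimum in any comparison, so 7 members entered. In KO over control at day 4, 0 members were higher and 3 were lower, against 3.06% and 8.01% of 12260 genes. They were Ighg3 (ratio 0.0968, 0.0823 to 0.113), Ighg2c (0.0475, 0.0395 to 0.0568) and Igha (0.0314, 0.0267 to 0.0366). Ighg1 was at 65.9 CPM in KO day 4 and 67.7 CPM in control day 4, a ratio of 0.974 (0.885 to 1.07), and Ighg2b at 218 CPM and 231 CPM, a ratio of 0.944 (0.896 to 0.994). Without the cell with most UMIs in each pool, Ighg1 was at 8.77 CPM in KO day 4 and 30.7 CPM in control day 4, and Ighg2b at 70.6 CPM in KO day 4 and 110 CPM in control day 4, so that both were past the fold. In KO over control at day 0, 1 member was higher, Ighg3 at 13.1 CPM in KO day 0 and 4.38 CPM in control day 0, and 2 were lower, Ighg2b and Ighg2c, against 4.37% and 5.56% of 11179 genes.

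Leaving out the cells with at least 20 Jchain UMIs changed which members these were. In the remaining B lineage cells at day 4, Ighg3 was at 9.45 CPM in KO and 8.32 CPM in control, and Ighg2c at 6.10 CPM in KO and 4.91 CPM in control, so that neither was past the fold. Ighg1 was lower, at 8.31 CPM in KO day 4 (109 UMIs in 20 cells) and 25.7 CPM in control day 4 (241 UMIs in 26 cells), a ratio of 0.323 (0.255 to 0.407). Igha was lower, at 12.2 CPM in KO day 4 and 20.3 CPM in control day 4, a ratio of 0.601 (0.484 to 0.746). With 0 members higher, these 2 of 7 lower members stood against 3.08% of genes higher and 3.22% lower in the same cells. The top 5 cells held 74.3% of the KO and 49.8% of the control Ighg1 UMIs there, so this ratio too compares a few cells of 2 pools. At day 0 the remaining cells gave 1 member past the fold, Ighg3 with 47 UMIs in KO and 17 in control, and 0 lower, against 3.82% and 3.59% of genes.

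Between days, 2 members were higher and 1 was lower in KO day 4 over KO day 0, against 6.22% and 5.95% of 11834 genes. Ighg1 was higher by 5.05 and Ighg2b by 4.27 on the log2 scale, and Ighg2c was lower at 8.89 CPM in KO day 4 and 16.7 CPM in KO day 0. The lower value of Ighg2c rested on 1 day 0 cell with 91 of 101 UMIs, and without Jchain cells Ighg2c was higher at 6.10 CPM in KO day 4 and 1.80 CPM in KO day 0. In control day 4 over control day 0, 4 members were higher and 0 lower, against 9.21% and 7.13% of 11818 genes. They were Ighg3, Ighg1, Ighg2c and Igha, with log2 ratios of 4.85, 5.59, 0.92 and 5.48. Without Jchain cells, 3 of 7 members were higher and 0 lower in KO day 4 over KO day 0, against 4.83% and 5.18% of genes. In control day 4 over control day 0, 5 of 7 were higher and 0 lower, against 5.49% and 7.29% of genes. Ighg1 then had 109 UMIs in KO day 4 and 12 in KO day 0, a ratio of 3.84 (2.11 to 7.65), and 241 in control day 4 and 9 in control day 0, a ratio of 16.3 (8.46 to 36.1). For Ighg2b the day 4 over day 0 ratio was 2.05 in KO cells (1.57 to 2.70) and 3.14 in control cells (2.38 to 4.19). The 2 KO over control comparisons and the 2 day comparisons share pools and are not independent of each other.

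Each cell was next assigned the constant gene with most UMIs, where that gene had at least 5 and no tie. This typed 3848 of 5287 B lineage cells: 2768 by Ighm, 984 by Ighd, 38 by Ighg2b, 19 by Ighg1, 16 by Igha, 14 by Ighg2c, 9 by Ighg3 and 0 by Ighe. Ighm and Ighd cells are unswitched, and the other 96 are called switched here. Switched cells were 39 of 1388 typed cells in KO day 4 (2.81%, 2.01% to 3.82%), 43 of 987 in control day 4 (4.36%, 3.17% to 5.82%), 7 of 700 in KO day 0 (1.0%, 0.403% to 2.05%) and 7 of 773 in control day 0 (0.906%, 0.365% to 1.86%). The day 4 share was 2.81 times the day 0 share in KO cells (1.24 to 7.44) and 4.81 times in control cells (2.15 to 12.7). The KO share was 0.645 of the control share at day 4 (0.407 to 1.02) and 1.10 of it at day 0 (0.331 to 3.69), and both intervals hold 1. With every cell thinned to 1500 UMIs and a minimum of 2, the shares were 2.59% in KO day 4, 3.56% in control day 4, 0.971% in KO day 0 and 0.833% in control day 0.

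Cells of other lineages gave no switched call. Of 7120 T lineage cells in the CD4 T cell library, 0 were called switched, where a floor of 3 cells would be 0.0421%. In the same cells 0 were called by Ighd, while 333 were called by Ighm (4.68%, 4.20% to 5.19%). In the B cell library, 28 of 190 cells of other lineages were called by Ighm, 4 by Ighd and 0 by a switched gene.

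Subsets were gated by marker genes without any immunoglobulin gene. A follicular gate (3 of 4 genes, among them Fcer2a, Ccr7 and Klf2, with Fcer2a required) held 2318 cells, a marginal zone gate (3 of 6 genes, among them S1pr3, Cd9 or Asb2, with at most 1 Fcer2a UMI) 275, a transitional gate 217, a gate of genes of the day 4 response such as Cd83 and Nfil3 ("activated") 931, a cycling gate 59, and a germinal center gate 40. A gate of at least 2 of Zbtb32, Bhlhe41, Cd5, Spn, Ctla4 and Plscr1, genes that mark B1 cells but also other activated or memory B cells, held 97 cells. It rests on fewer than 3 genes per cell, so it is called the Zbtb32 list here and given no cell type. The remaining 1294 B lineage cells fell in no gate. Cells of the small gates were deeper, with medians of 13294 UMIs in the germinal center gate and 10155 in the Zbtb32 list, against 5084 in the follicular gate.

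Outside Jchain cells, Ighd was at 815 CPM in the follicular gate (800 to 831) and 756 CPM in the activated gate (735 to 776). It was at 620 CPM in the transitional gate, 267 in the Zbtb32 list, 257 in the marginal zone gate (238 to 278), 169 in the cycling gate and 145 in the germinal center gate. The intervals of the Zbtb32 list and the marginal zone gate overlap, and so do those of the cycling and germinal center gates. Ighm was at 1186 CPM in the follicular gate, 1011 in the activated gate, 1745 in the transitional gate, 1064 in the Zbtb32 list, 1306 in the marginal zone gate, 812 in the cycling gate and 520 in the germinal center gate. Against the follicular gate of the same pool, marginal zone Ighd was lower in 4 of 4 pools, with ratios of 0.306 in KO day 4, 0.371 in control day 4, 0.336 in KO day 0 and 0.209 in control day 0. In those pools 15.9%, 16.9%, 23.6% and 23.6% of all genes with at least 20 UMIs were at least 1.5-fold lower. Ighm in marginal zone over follicular cells was within 1.5-fold in each pool, at ratios of 1.08 to 1.24. Low IgD on marginal zone B cells is a textbook feature, and the RNA showed the same order here in each pool.

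The UMIs of Ighd per UMI of Ighm, a ratio that cancels the scaling, were 0.680 in KO day 4, 0.707 in control day 4, 0.676 in KO day 0 and 0.691 in control day 0 follicular cells, and the intervals of the 4 pools overlap. The same ratio was 0.190, 0.244, 0.210 and 0.117 in marginal zone cells of these pools. In activated cells it was 0.731 in KO day 4 (0.697 to 0.767) and 0.808 in control day 4 (0.762 to 0.857). Activated cells of day 0 numbered 33 in KO and 24 in control, and gave 0.498 (0.410 to 0.604) and 0.705 (0.572 to 0.869). The KO day 0 interval lies below that of KO day 4, and the control day 0 interval overlaps that of control day 4. In transitional cells, the immature emigrants from bone marrow, the ratio was 0.2998 in KO day 4, 0.430 in control day 4, 0.310 in KO day 0 and 0.448 in control day 0. The KO day 4 sum included 1 cell with fewer than 20 Jchain UMIs that held 376 of the 1004 Ighm UMIs. The median ratio over transitional cells was 0.438 in KO day 4, 0.437 in control day 4, 0.25 in KO day 0 and 0.396 in control day 0.

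**Figure D2:**
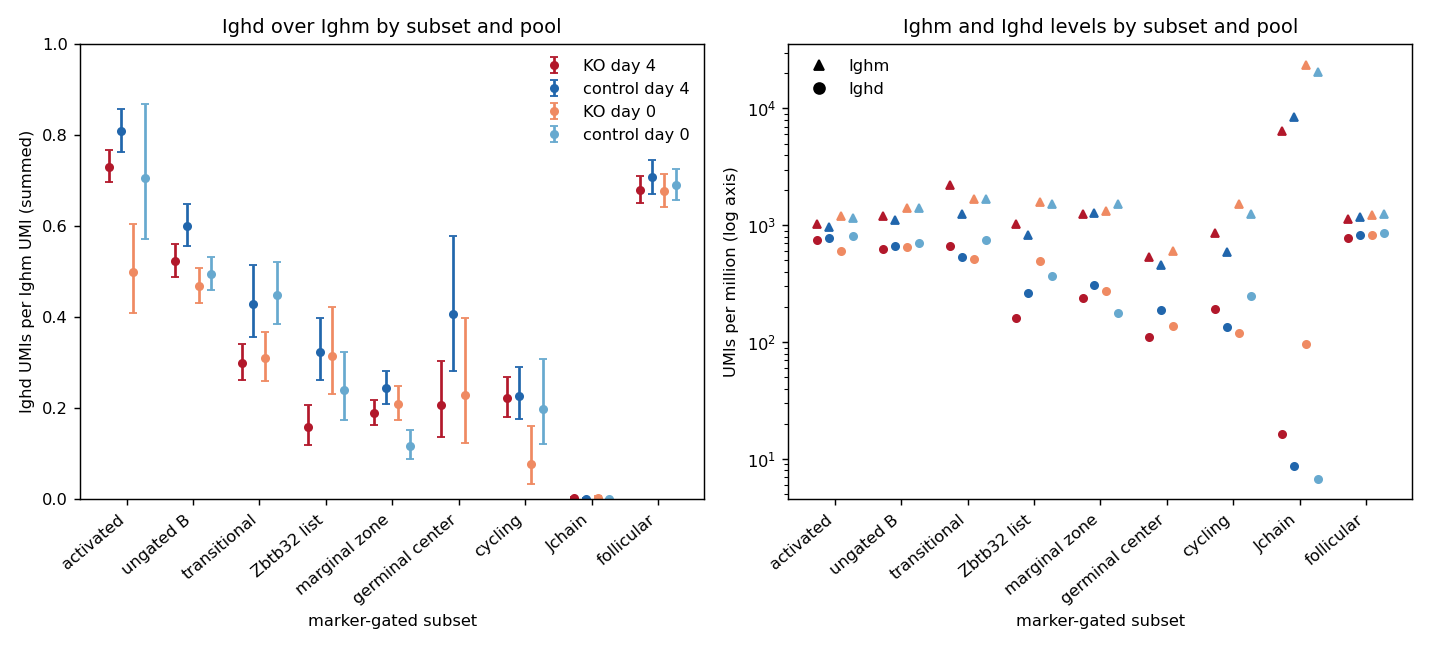
Left, summed Ighd UMIs per summed Ighm UMI in each marker-gated subset, for KO day 4, control day 4, KO day 0 and control day 0 cells, with 95% intervals for counting error. Right, Ighm (triangles) and Ighd (circles) in CPM on a log axis for the same subsets. Follicular cells of all 4 pools sit between 0.676 and 0.707, marginal zone cells between 0.117 and 0.244, and Jchain cells at or near 0.

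Zfp318 encodes a nuclear protein needed for the read-through transcript that gives Ighd. It was high and low in the same gates as Ighd, at 200 CPM in follicular, 188 in activated and 169 in transitional cells, 68.9 in marginal zone, 72.2 in the Zbtb32 list, 79.6 in cycling, 81.5 in germinal center and 6.45 in Jchain cells. Ell2, an elongation factor known to favor the secreted form of the heavy chain, was at 196 CPM in Jchain cells and 20.9 to 46.2 CPM in the other gates.

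By dominant gene, follicular and activated cells were almost all unswitched. Of 1660 typed follicular cells, 1148 were called by Ighm, 508 by Ighd and 4 by a switched gene (0.241%, 0.0657% to 0.616%). Of 693 typed activated cells, 455 were called by Ighm, 236 by Ighd and 2 by Igha (0.289%). Marginal zone cells were 96.3% Ighm, 2.06% Ighd and 1.65% switched (4 of 243), and transitional cells 83.6% Ighm and 15.8% Ighd with 1 switched cell of 183. The cycling gate held 47 Ighm, 1 Ighd and 2 switched cells.

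Most switched cells outside the Jchain gate came from 2 small gates. In the germinal center gate, 21 of 35 typed cells were switched (60%, 42.1% to 76.1%): 12 by Ighg2b, 5 by Ighg2c, 3 by Ighg1 and 1 by Ighg3, with 0 by Igha. By pool they were 10 of 14 in KO day 4, 8 of 13 in control day 4 and 3 of 8 in KO day 0, and control day 0 had 0 cells in this gate. In the Zbtb32 list, 26 of 85 typed cells were switched (30.6%, 21.1% to 41.5%): 11 by Ighg1, 8 by Ighg2b, 6 by Igha and 1 by Ighg3, with 0 by Ighg2c. They were 10 of 31 in KO day 4, 14 of 32 in control day 4, 0 of 8 in KO day 0 and 2 of 14 in control day 0. Thinned to 1500 UMIs, the germinal center gate had 9 switched of 20 typed cells and the Zbtb32 list 16 of 66, while the follicular gate had 6 of 1430. By pool the thinned germinal center counts were 7 of 10 in KO day 4, 1 of 6 in control day 4 and 1 of 4 in KO day 0. The near-equal day 4 shares of this gate therefore did not hold after thinning, on few cells.

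The levels of Ighg1 and Ighg2c were ordered differently in these 2 gates. The Zbtb32 list, with 3.36% of the UMIs of B lineage cells outside Jchain cells, held 62.8% of their Ighg1, 38.3% of their Ighg2b and 28.2% of their Igha UMIs. The germinal center gate, with 1.93% of those UMIs, held 55.4% of the Ighg2c and 24.0% of the Ighg2b UMIs. Ighg2b was at 262 CPM in the Zbtb32 list (234 to 294) and 288 CPM in the germinal center gate (248 to 332), and these intervals overlap. Ighg1 was at 205 CPM in the Zbtb32 list (233 UMIs in 18 cells, 40 in the top cell), 73.8 CPM in the germinal center gate (48 UMIs in 6 cells) and 1.07 CPM in the follicular gate. Ighg2c was at 15.9 CPM in the Zbtb32 list (18 UMIs in 6 cells), 126 CPM in the germinal center gate (82 UMIs in 13 cells, 23 in the top cell) and 0.994 CPM in the follicular gate. Of those 82, 61 came from KO day 4, and 1 cell called by Ighg2b held 10. Both orders held in each day 4 pool and were the other way in KO day 0, with at most 9 UMIs of either gene in a gate. The 10 Ighe UMIs outside Jchain cells all lay in the germinal center gate (6) and the cycling gate (4).

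**Figure D3:**
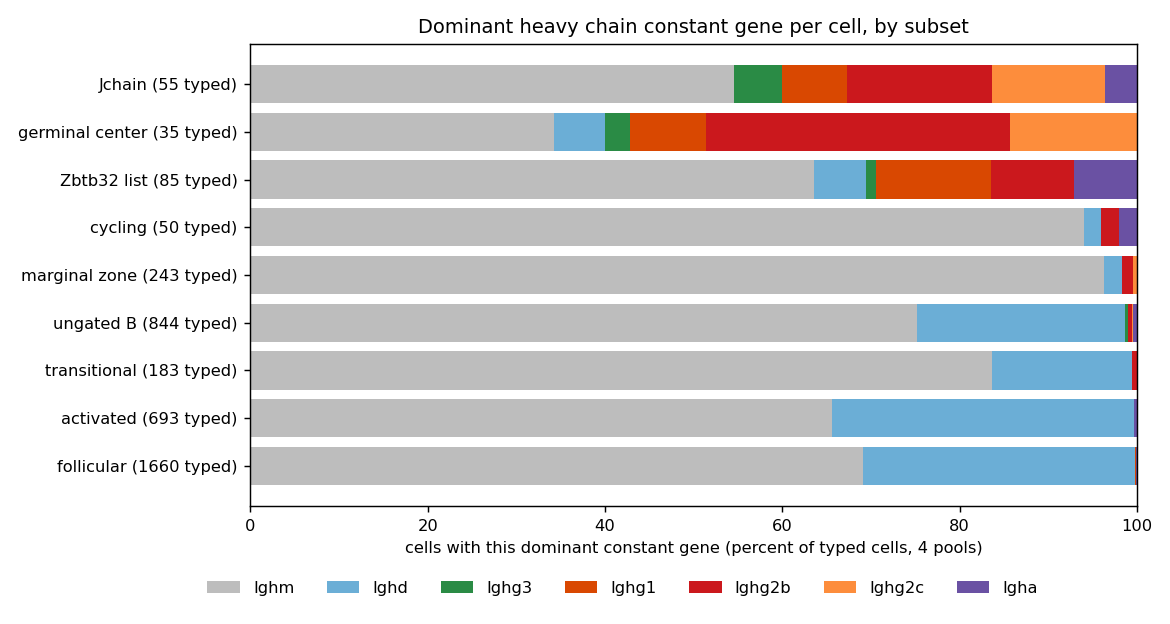
Share of typed cells (percent, 4 pools together) by dominant heavy chain constant gene in each marker-gated subset. The Jchain, germinal center and Zbtb32 list gates are the ones with broad switched segments, at 45.5%, 60% and 30.6% of typed cells, against 0.241% in follicular cells.

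The 71 switched cells outside the Jchain gate held few UMIs of Ighm and Ighd. The call fixes this in part, since both must lie below the leading gene. In 49 of the 71 no Ighm UMI was seen and in 66 no Ighd UMI. Their leading gene had a median of 12 UMIs and at most 41. Of all B lineage cells without Jchain cells, 97.3% held an Ighm UMI and 89.7% an Ighd UMI. A Jchain UMI was seen in 20 of the 21 switched germinal center cells and in 4 of the 26 switched cells of the Zbtb32 list, although both sets lay below the Jchain minimum. For comparison, a Jchain UMI was seen in 10 of 190 cells of other lineages in the same library (5.26%, median depth 9533 UMIs). Unswitched cells of the same gates are not shown here, so these counts do not tie Jchain to the switched cells of a gate.

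Other IgG genes appeared in switched cells in an uneven way. Of 19 cells called by Ighg1, 11 also held Ighg2b UMIs, 64 in all and up to 19 in a cell that had 22 of Ighg1. The reverse was not seen: the 38 cells called by Ighg2b held 0 Ighg1 UMIs beside 7191 of Ighg2b, and the cell with 829 Ighg1 UMIs held 0 of Ighg2b. Ighg2b and Ighg2c were seen together in 10 of 38 Ighg2b cells (95 Ighg2c UMIs) and 4 of 14 Ighg2c cells (66 Ighg2b UMIs). The Ighg3 cell with 828 UMIs held 79 Ighg1 UMIs. Ighg3 UMIs were in turn seen in 5 of the 38 Ighg2b cells (16 UMIs, at most 11 in a cell) and 2 of the 19 Ighg1 cells (11 UMIs, at most 9). The annotated transcripts of Ighg1 and Ighg2b have a longest shared run of 37 bases. The source of these UMIs was not tested.

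The Jchain gate held 56 cells with at least 20 Jchain UMIs: 16 in KO day 4, 24 in control day 4, 10 in KO day 0 and 6 in control day 0. The 5 values just inside the minimum were 20, 22, 22, 22 and 23, and the 5 just outside were 19, 19, 19, 18 and 18. Of 55 typed cells, 30 were called by Ighm, 9 by Ighg2b, 7 by Ighg2c, 4 by Ighg1, 3 by Ighg3 and 2 by Igha, so that 25 were switched (45.5%, 32.0% to 59.4%). KO day 4 had 8 Ighm, 3 Ighg2b, 2 Ighg1, 2 Ighg2c and 1 Ighg3 cells. Control day 4 had 10 Ighm, 5 Ighg2b, 3 Ighg2c, 2 Ighg1, 2 Ighg3 and 2 Igha cells. KO day 0 had 8 Ighm and 1 Ighg2c cells, with 1 cell under the minimum, and control day 0 had 4 Ighm, 1 Ighg2b and 1 Ighg2c cells. The switched shares were 8 of 16 in KO day 4, 14 of 24 in control day 4, 1 of 9 in KO day 0 and 2 of 6 in control day 0, and the interval of each ratio between pools held 1.

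The Jchain gate was not uniform. The 38 cells with at least 100 Jchain UMIs had a median of 664 UMIs of their leading constant gene, and 36 of them held a UMI of Sdc1, the plasma cell surface marker CD138. They were 9 cells in KO day 4, 17 in control day 4, 6 in KO day 0 and 6 in control day 0, with 22 called by Ighm and 16 switched. The 18 cells with 20 to 99 Jchain UMIs had a median of 30 UMIs of their leading gene, 0 held a UMI of Sdc1, and 15 held at least 3 germinal center markers. Those lower cells were 7 in KO day 4, 7 in control day 4, 4 in KO day 0 and 0 in control day 0, with 8 called by Ighm and 9 switched of 17 typed. This split at 100 was chosen after the values were seen.

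**Figure D4:**
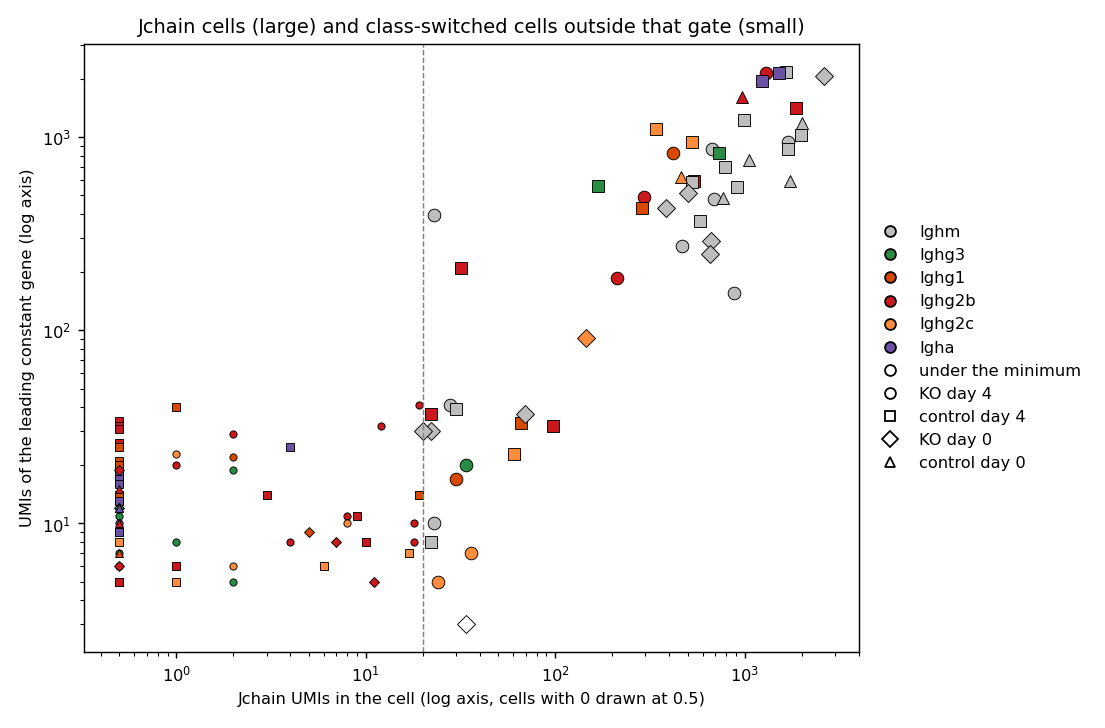
Each point is 1 cell: Jchain UMIs against UMIs of its leading constant gene, both on log axes, colored by that gene and shaped by pool, with large points for the 56 Jchain cells and small points for the 71 switched cells outside that gate. The dashed line marks 20 Jchain UMIs. Cells above 100 Jchain UMIs carry 91 to 2188 UMIs of their leading gene, and switched cells left of the line carry 5 to 41.

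In the cells with most UMIs of a constant gene, that gene was nearly the sole member seen. This did not hold for every deep cell. A control day 4 Jchain cell of 59811 UMIs held 23 of Ighg2c beside 17 of Ighm. The control day 4 cell with 2188 Ighm UMIs used Ighv1-80 with Igkv13-84, and held 0 UMIs of the other members. The 2 Igha cells of control day 4 had 2149 and 1946 Igha UMIs, 10.4% and 10.6% of all their UMIs. Both used Ighv7-3 and Igkv4-91. In the same pool, the Ighg2b cell with 1412 UMIs also used Ighv1-80 and Igkv13-84, the V genes of the Ighm cell with 2188 UMIs. In KO day 0, 3 Ighm cells shared Ighv1-82 with Igkv17-127 and 2 Ighm cells shared Ighv7-3 with Igkv1-110. Outside the Jchain gate, some pairs of switched Ighg2b cells also shared V genes. In the germinal center gate these were Ighv5-12 with Igkv14-111 (KO day 4) and Ighv8-8 with Igkv1-110 (control day 4). In the Zbtb32 list it was Ighv1-18 with Igkv4-59 (KO day 4). The switched shares and their intervals count such cells separately. Shared V genes do not by themselves give a shared clone, since the junction sequence is not in the expression table. In the Jchain gate, 35 heavy V genes led in the 56 cells, the leading one held at least 90% of heavy V UMIs in 50 cells, and kappa constant UMIs outnumbered lambda in 42. The last count does not give the light chain class of each cell. A KO day 0 cell led by Igkv17-127 had 22 kappa and 118 lambda constant UMIs, and a control day 0 cell led by Iglv1 had 525 and 413.

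Genes that act on the locus were compared from 4 lists, which were chosen with earlier results of these data known. Of 26 class switch genes, 1 was higher and 0 lower in KO over control at day 4, against 3.06% and 8.01% of all genes. It was Apex2, at 148 UMIs in KO and 66 in control. In KO day 4 over KO day 0, 1 was higher and 0 lower, against 6.22% and 5.95% of all genes. It was Exo1, an exonuclease of mismatch repair, at 66 UMIs in KO day 4 and 13 in KO day 0. In control day 4 over control day 0, 4 of the 26 were higher and 1 lower, against 9.21% and 7.13% of all genes. Ung, the uracil glycosylase of the switch reaction, was higher at 185 UMIs in control day 4 and 58 in control day 0. Exo1 was higher at 62 UMIs in control day 4 and 20 in control day 0, and Hmces at 477 and 175. Apex2 was lower at 66 UMIs in control day 4 and 71 in control day 0, which is 5.70 CPM and 11.1 CPM. Of 8 heavy chain RNA processing genes, Hnrnpll, a splicing factor of plasma cells, was the single gene past the fold in each comparison. Over all genes, 3.06% to 9.21% were higher and 5.56% to 8.01% lower in these comparisons. Hnrnpll was lower in KO, with 46 UMIs in KO day 4 and 91 in control day 4, and 11 in KO day 0 and 28 in control day 0. B lineage cells held few of these UMIs, with 7 in KO day 4, 17 in control day 4, 1 in KO day 0 and 5 in control day 0. Of 12 antibody secretion genes, 0 were higher and 6 lower in KO over control at day 4, against 3.06% and 8.01% of all genes. Among them Jchain was at 486 CPM in KO day 4 and 1459 CPM in control day 4, and Prdm1, the plasma cell transcription factor, had 47 UMIs in KO day 4 and 88 in control day 4. Without the 16 KO and 24 control Jchain cells, 1 of 11 was higher and 0 lower in B lineage cells, against 3.08% and 3.22% of genes. In KO over control at day 0, 0 of 12 were higher and 5 lower, against 4.37% and 5.56% of all genes. Without the 10 KO and 6 control Jchain cells 1 of 10 was higher and 0 lower in B lineage cells, against 3.82% and 3.59% of genes. Of 11 isotype-directing factors with enough UMIs, 0 were past the fold in KO over control at day 4, against 3.06% of all genes higher and 8.01% lower. In KO day 4 over KO day 0, 1 of 11 was higher and 2 were lower, against 6.22% and 5.95% of all genes, and in control day 4 over control day 0, 2 of 11 were higher and 0 lower, against 9.21% and 7.13%. Tbx21, which encodes T-bet and favors Ighg2c in mouse, was higher at day 4 in both genotypes, with 55 UMIs in KO day 4 and 10 in KO day 0, and 43 in control day 4 and 8 in control day 0. In KO, Smad3 was lower at 4.82 CPM in KO day 4 and 7.63 CPM in KO day 0. Id2 was lower in KO at 10.1 CPM in KO day 4 and 15.4 CPM in KO day 0, and higher in control at 10.8 CPM in control day 4 and 6.88 CPM in control day 0. In B lineage cells alone Id2 was past the fold in neither, at 6.91 CPM in KO day 4 and 6.67 CPM in KO day 0, and 5.06 CPM in control day 4 and 3.58 CPM in control day 0, while Tbx21 was higher at day 4 in both genotypes.

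The genes most like each member were taken by Spearman correlation of log2 CPM over 25 points, each a subset in a pool, among 9218 genes. The points share pools and 1 library, and the values are descriptions. They are the highest among 9218 genes, and how high such values reach without any relation was not computed. Ighd was most like Ralgps2 (0.93) and H2-Ob (0.90). Ighm was close to Myl4 (0.75) and Cyfip2 (0.74). Ighg3 was most like Cacna1s (0.84), Ighg1 like Atat1 (0.69), Ighg2b like Ptpn22 (0.85), and Ighg2c and Igha both like Lpcat4 (0.80 and 0.74). Ighe was too low to be compared.

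Constant gene RNA was also seen outside the B lineage, and the members differed in it. Ighm was at 1167 CPM in B lineage cells without Jchain cells, where 97.3% of cells held a UMI of it, and at 222 CPM in the 7120 T lineage cells of the CD4 T cell library, where 56.8% did. The median depth was 5415 UMIs in those B lineage cells and 5146 in the T lineage cells. Ighd had 22425 UMIs in the B lineage cells and 98 in the T lineage cells, and Igkc, the kappa light chain constant gene, had 37019 and 79. Ighd per Ighm UMI was 0.569 in B lineage cells and 0.0107 in T lineage cells, and Igkc per Ighm UMI was 0.940 in B lineage cells and 0.00866 in T lineage cells. The T lineage Ighm RNA thus came with far less Ighd and Igkc RNA per Ighm UMI than in B cells. The T lineage cells held 0 UMIs of Cd79a and Ms4a1, which their selection required. By pool, Ighm in T lineage cells was at 212 CPM in KO day 4, 242 in control day 4, 215 in KO day 0 and 220 in control day 0. The switched genes had 0 to 4 UMIs each there. In the 190 cells of other lineages of the B cell library, Ighm was at 126 CPM and Ighd at 27.03 CPM, a ratio of 0.214.

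**Figure D5:**
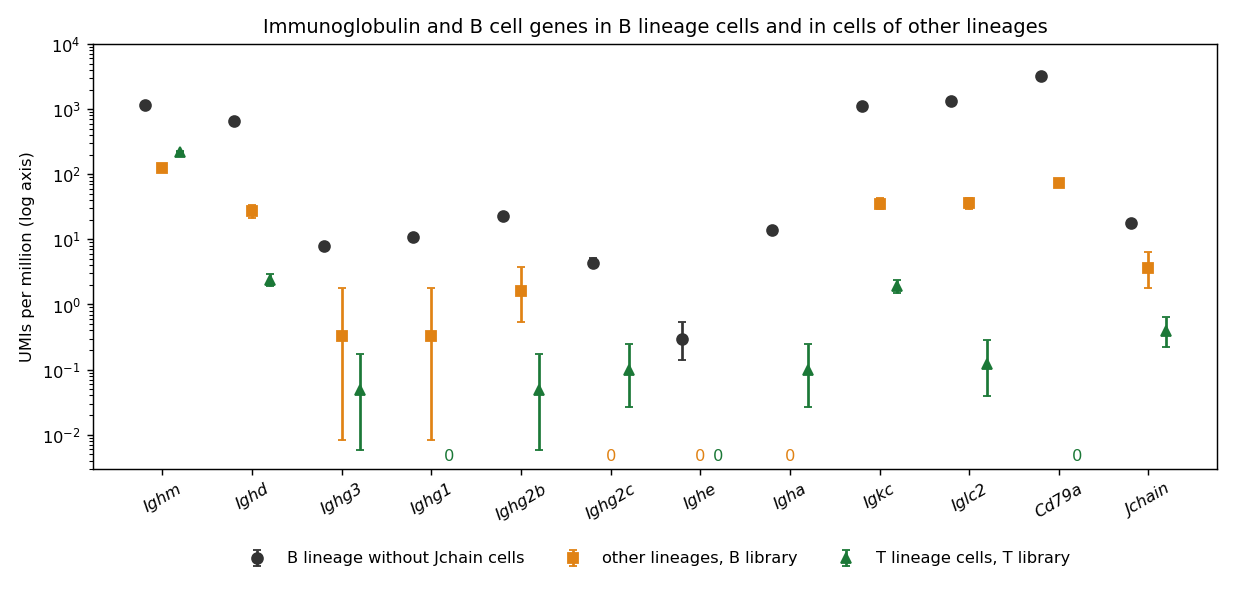
Heavy chain constant genes, light chain constant genes, Cd79a and Jchain in B lineage cells without Jchain cells (circles), cells of other lineages of the B cell library (squares) and T lineage cells of the T cell library (triangles), in CPM on a log axis with 95% Poisson intervals, and 0 where no UMI was seen. Ighm is at 1167 CPM in B lineage and 222 CPM in T lineage cells, while Ighd is at 664 CPM and 2.38 CPM.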

How the data were processed

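Single cell RNA was read as the deposited counts, whole numbers of UMIs per gene and cell, which the authors made with Cell Ranger 5.0.0 on mm10, per the submitters' processing notes. Cells with under 200 genes or over 10% mitochondrial UMIs were left out. Hashtag counts were called with HTODemux (Seurat 5.3.0, R 4.3.3, positive quantile 0.99), and cells with several or no hashtags were left out, the one step taken against doublets. Pools were summed and scaled to counts per 1000000 UMIs (CPM) (Python 3.11.15, numpy 2.4.6, scipy 1.17.1, pandas 2.3.3, figures with matplotlib 3.10.9). Counts have exact Poisson intervals, ratios exact conditional binomial intervals and shares Clopper-Pearson intervals, all at 95% and for counting error only. Total depth was 14512361 UMIs in KO day 4, 11587684 in control day 4, 6031278 in KO day 0 and 6391838 in control day 0. Since each genotype and day is 1 pool with an unstated number of mice, no test was run and no p-value is given.

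A gene was past the fold at a ratio of 1.5 with at least 20 UMIs in both pools together. Cells were gated in this order without immunoglobulin genes: Jchain (at least 20 UMIs, the exception), other lineages, germinal center, cycling, marginal zone, Zbtb32 list, transitional, activated and follicular. Named genes were the 8 members, genes of the lists past the fold, and up to 3 genes most like each member. Some genes that meet these rules are not reported here. The members and lists were chosen with earlier results of these data known. Sequences and positions come from GENCODE vM21, to which 32158 of 32285 gene identifiers matched. The scripts were tested on simulated counts.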

Additional observations from a re-analysis of the deposited data

Results flagged for a closer look

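Ighg3 moved in opposite directions between genotypes on the 2 days. Its log2 ratio of KO over control was -3.37 at day 4 and 1.58 at day 0. Each value compares 1 pool with 1 pool, and the difference between days was not tested. In B lineage cells without Jchain cells the day 4 value was 0.18.

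Ighg2c moved in opposite directions between days in the 2 genotypes. Its log2 ratio of day 4 over day 0 was -0.91 in KO cells and 0.92 in control cells, and this difference was not tested either. Without Jchain cells the values were 1.76 in KO and 1.22 in control cells.

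The CD4 T cell library, which entered no comparison of the pools, held heavy chain RNA. Its T lineage cells had 9122 Ighm UMIs and 98 Ighd UMIs. In the same library 1 barcode held 2083 of 2088 Ighg2c UMIs together with 338 Jchain UMIs. Another barcode held 730 of 735 Igha UMIs.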

How the results depend on the processing

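Of 298 values recomputed under alternatives, 223 were labeled the same, 69 moved and 6 reversed. Same meant within the counting interval of the reported value. For counts of members past the fold it meant a total, higher and lower together, within 1.5 times. Reversed was given only to members past the fold, so sign changes of other members are not among the 6. Ighg2b in control day 4 over control day 0, for example, went from a log2 ratio of -0.19 to 1.65 without Jchain cells. Leaving out the top cell of each gene gave 5 members past the fold in KO over control at day 4, where Ighg1 (-1.80) and Ighg2b (-0.63) joined, and 1 at day 0. The share of all genes was not recomputed without top cells. With them, 11.1% of genes were past the fold in either direction at day 4 and 9.93% at day 0. Leaving out Jchain cells, an alternative chosen after seeing the data, gave 1 member at day 0, against 7.41% of genes. The log2 ratio of Ighg2c in KO day 4 over KO day 0 reversed to 2.14 without the top cell, 2.93 with a simple hashtag rule and 1.76 without Jchain cells. Without Jchain cells Ighg3 (0.18) and Ighg2c (0.31) reversed in KO over control at day 4, and Ighg2b (0.18) at day 0. Switched shares with a minimum of 10 UMIs were 4.38% in KO day 4, 7.66% in control day 4 and 2.26% in control day 0. With a leading gene at least 2 times the next they were 3.99% in KO day 4 and 6.70% in control day 4, and without Jchain cells 3.01% in control day 4. With 1 more marker per gate the share was 0 in the transitional and 2.04% in the activated gate. Ighd over Ighm in B lineage cells was 0.466 in KO day 4, 0.351 in control day 4, 0.343 in KO day 0 and 0.399 in control day 0. As a median over cells it was 0.625, 0.667, 0.571 and 0.600 in that order, and without Jchain cells 0.565, 0.625, 0.516 and 0.557. A Jchain minimum of 10 or 50 UMIs gave switched shares of 47.8% and 45.2%.

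Without the barcodes shared with the T cell library, also chosen after seeing the data, the counts of members past the fold were 3, 3, 3 and 4 in the 4 comparisons, as with them. The share of all genes was 11.1%, 9.93%, 12.2% and 16.3% with these barcodes and was not recomputed without them. The switched shares without them were 2.84% in KO day 4, 4.33% in control day 4, 1.01% in KO day 0 and 0.917% in control day 0.

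No paired analysis was possible because each genotype and day is 1 pool and no test was made. With 1 pool per group there was no replicate to leave out. Differences between mice cannot be told apart from differences between genotypes or days, and counts of switched UMIs are limited by the few cells that hold them.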
